A study of Homo sapiens with 6 samples.

Results

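The genes described are 10 members of the ERBB signalling family, out of 61806 genes in the deposited table. These genes were chosen by symbol from a fixed list, with earlier results of these data known. They comprised 3 receptors (EGFR, ERBB2 and ERBB3), 6 ligands (TGFA, HBEGF, EREG, AREG, BTC and NRG1) and 1 intracellular inhibitor (ERRFI1). Each of the 10 symbols matched 1 gene, and all 10 genes had enough counts to be tested.

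RNA was sequenced from MDA-MB-231, an established human triple-negative breast cancer cell line, in 6 libraries. The study asked which genes change when HMGA2, a DNA-binding architectural protein of chromatin, is reduced with short hairpin RNA (shRNA). The 3 groups were the control line shNC and the knockdown lines shHMGA2-1 and shHMGA2-2, which carry different hairpins against HMGA2, with 2 libraries each. The study's methods describe puromycin selection of cells infected with lentivirus and the growth of stable knockdown lines from a lone clone. Each knockdown line therefore stands for 1 hairpin and 1 clone, and these cannot be told apart. For shNC no cloning step is stated, and its libraries were named WT, against the title shNC, while SH2 appears in the names of the shHMGA2-1 libraries. Groups follow the titles. Nothing in the labels says that the libraries of a line came from separate cultures, so that p-values measure the spread between these samples, which may be technical.

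ERBB receptors are membrane tyrosine kinases that act in pairs. Ligands of the epidermal growth factor (EGF) family are made as membrane precursors, are shed by proteases, and bring receptors together, after which the RAS, ERK and PI3K pathways carry the signal inward. EGFR binds TGFA, AREG, HBEGF, EREG and BTC, ERBB3 binds neuregulins such as NRG1 and has little kinase activity of its own, and ERBB2 has no known ligand and serves as a preferred partner. ERRFI1, also known as MIG6, binds the kinase domain of these receptors and inhibits it. EGFR is a known abundant surface receptor of triple-negative breast cancer cells.

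HMGA2 itself had 2126 and 2161 counts per shNC library, 858 and 989 per shHMGA2-1 library and 435 and 482 per shHMGA2-2 library, so that every knockdown library lay below every control library. Libraries held 16461178 to 17167293 counts. The 10 leukocyte markers summed to 0.09 to 0.6 FPKM (counts scaled by exon length and library total), with CD3E, CD3D and MS4A1 at 0, and no marker reached a mean of 1. As checks of the labelled line, ESR1 had 2 to 12 counts, PGR 0 to 2, and VIM 411 to 432 FPKM. The 4 hormone receptor markers summed to 1.99 to 2.54 FPKM in shNC, 1.56 to 1.59 in shHMGA2-1 and 4.77 to 5.67 in shHMGA2-2, where GATA3 was higher (262 and 318 counts, against 58 and 41 in shNC) and FOXA1 lower (5 and 1, against 110 and 94). The sum of 11 epithelial markers was 58.8 to 60.6 FPKM in shNC, 52.9 to 58.7 in shHMGA2-1 and 70.9 to 76.2 in shHMGA2-2, and that of 8 mesenchymal markers was 1044 to 1067, 904 to 919 and 905 to 910. Of the 7 epithelial markers tested, 3 were higher and 2 lower in shHMGA2-2 than in shNC by edgeR, with a median log2 fold change of −0.10. Of all tested genes, 29.5% were higher and 29.2% lower in that comparison, with a median of 0.03. KRT8 was higher (27.0 and 29.9 FPKM, against 11.4 and 10.7), as were CLDN3 (1.57 and 2.18, against 0.0 and 0.23) and CLDN7 (2.63 and 2.42, against 1.09 and 0.9). KRT19 (0.83 and 1.19, against 4.97 and 5.27) and CLDN4 (0.48 and 0.63, against 3.02 and 3.06) were lower. Of the 7 mesenchymal markers tested, 5 were lower and 1 higher than in shNC in each knockdown line. Their median log2 fold change was −0.42 in shHMGA2-1 and −0.94 in shHMGA2-2, beside 0.01 and 0.03 over all tested genes. Of all tested genes, 17.6% were lower in shHMGA2-1 and 29.2% in shHMGA2-2. CDH1 of the epithelial list had 0 to 4 counts and SPARC of the mesenchymal list 0 to 6. GATA3, FOXA1, KRT8, CLDN3, CLDN7, KRT19 and CLDN4 were named after their values were seen. The part of these marker shifts in the results below was not tested. In a bulk library, fewer cells that express a gene and less RNA per cell cannot be told apart.

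Sequences upstream of EREG and AREG are shown because these neighbouring ligand genes shared an order of the 3 lines, and that of EGFR because its mRNA was lower in both. The start sites come from RefSeq (GRCh38.p14), and 250 bases before each start are printed 5′ to 3′ on the strand of the gene. Capitals mark matches, on either strand, to the TATA box TATAAA, to the cAMP response element TGACGTCA, to the CCAAT box and to the GC box GGGCGG, read as CCGCCC on the other strand. The AP-1 site, written as the letters TGANTCA, was searched too. In the windows shown, no match overlapped another.
EREG, chr4:74364895-74365144, plus strand: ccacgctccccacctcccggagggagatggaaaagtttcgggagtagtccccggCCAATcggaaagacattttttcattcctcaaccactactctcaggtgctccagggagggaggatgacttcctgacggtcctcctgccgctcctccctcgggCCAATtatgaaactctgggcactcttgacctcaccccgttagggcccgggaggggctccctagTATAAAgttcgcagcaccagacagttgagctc
AREG, chr4:74444886-74445135, plus strand: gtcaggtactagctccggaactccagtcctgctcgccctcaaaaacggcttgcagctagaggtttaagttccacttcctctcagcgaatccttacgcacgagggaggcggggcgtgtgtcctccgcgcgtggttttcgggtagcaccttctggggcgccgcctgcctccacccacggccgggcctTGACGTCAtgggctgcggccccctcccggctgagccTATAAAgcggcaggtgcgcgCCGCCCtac
EGFR, chr7:55018767-55019016, plus strand: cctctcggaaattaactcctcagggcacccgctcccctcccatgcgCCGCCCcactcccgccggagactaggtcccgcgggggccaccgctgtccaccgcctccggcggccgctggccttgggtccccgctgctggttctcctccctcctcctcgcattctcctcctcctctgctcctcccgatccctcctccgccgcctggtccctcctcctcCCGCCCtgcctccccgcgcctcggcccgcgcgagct

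EREG and AREG each held a TATA box, whose first base lay 32 and 29 bases before the start, and 10.7% of 35116 RefSeq promoter windows of the same length held these letters. AREG also held the cAMP response element 65 bases before its start, which 1.65% of the windows held. EREG held CCAAT boxes 196 and 95 bases before its start, against 32.0% of windows with at least 1. The EGFR window held GC boxes at 204 and 36 bases and no TATA box, and AREG held a GC box 9 bases before its start. GC boxes were found in 42.6% of windows. GC content was 58.0% for EREG, 65.2% for AREG and 73.6% for EGFR, with a median of 58.0% over all windows. The AP-1 letters, present in 6.57% of windows, were in none of these 3. RefSeq entries matched 8 of the 10 genes, with ERBB3 and NRG1 unmatched. EGFR and TGFA had a second window each, and the second EGFR window, within the gene, held TATA and AP-1 letters.

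EREG (ENSG00000124882; GRCh38 chr4:74365145-74388749, plus strand), AREG (ENSG00000109321; chr4:74445136-74455005, plus strand) and BTC (ENSG00000174808; chr4:74744759-74794523, minus strand) lie close together. EREG ends 56.4 kb before AREG starts. EGFR (ENSG00000146648) lies at chr7:55019017-55211628, ERBB2 (ENSG00000141736) at chr17:39687914-39730426 and ERBB3 (ENSG00000065361) at chr12:56076799-56103505, all on the plus strand. HBEGF (ENSG00000113070) at chr5:140332843-140346603, TGFA (ENSG00000163235) at chr2:70447284-70554193 and ERRFI1 (ENSG00000116285) at chr1:8004404-8026309 are on the minus strand. NRG1 (ENSG00000157168) lies on chromosome 8. Counts cover all exons of a gene, so that isoforms are not separated.

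Against shNC, 8 of the 10 genes differed in shHMGA2-1 (4 lower and 4 higher) and 9 of 10 in shHMGA2-2 (3 lower and 6 higher), by edgeR's quasi-likelihood test at a Benjamini-Hochberg adjusted p under 0.05 over 16110 genes. EGFR and TGFA were lower in both lines, ERBB2 and BTC higher in both, and EREG, AREG and NRG1 were called in opposite directions, although the NRG1 call in shHMGA2-1 was lost in 10 of 14 alternatives. Of all tested genes, 33.4% were called in shHMGA2-1 (17.6% lower and 15.8% higher) and 58.7% in shHMGA2-2 (29.2% lower and 29.5% higher). At least 2-fold differences were found for 5 of the 10 genes in shHMGA2-1, against 8.49% of all tested genes, and for 4 in shHMGA2-2, against 21.3%. Both comparisons share the shNC libraries. The median log2 fold change of the 10 genes was 0.00 in shHMGA2-1 and 0.34 in shHMGA2-2, beside 0.01 and 0.03 over all tested genes.

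**Figure D1:**
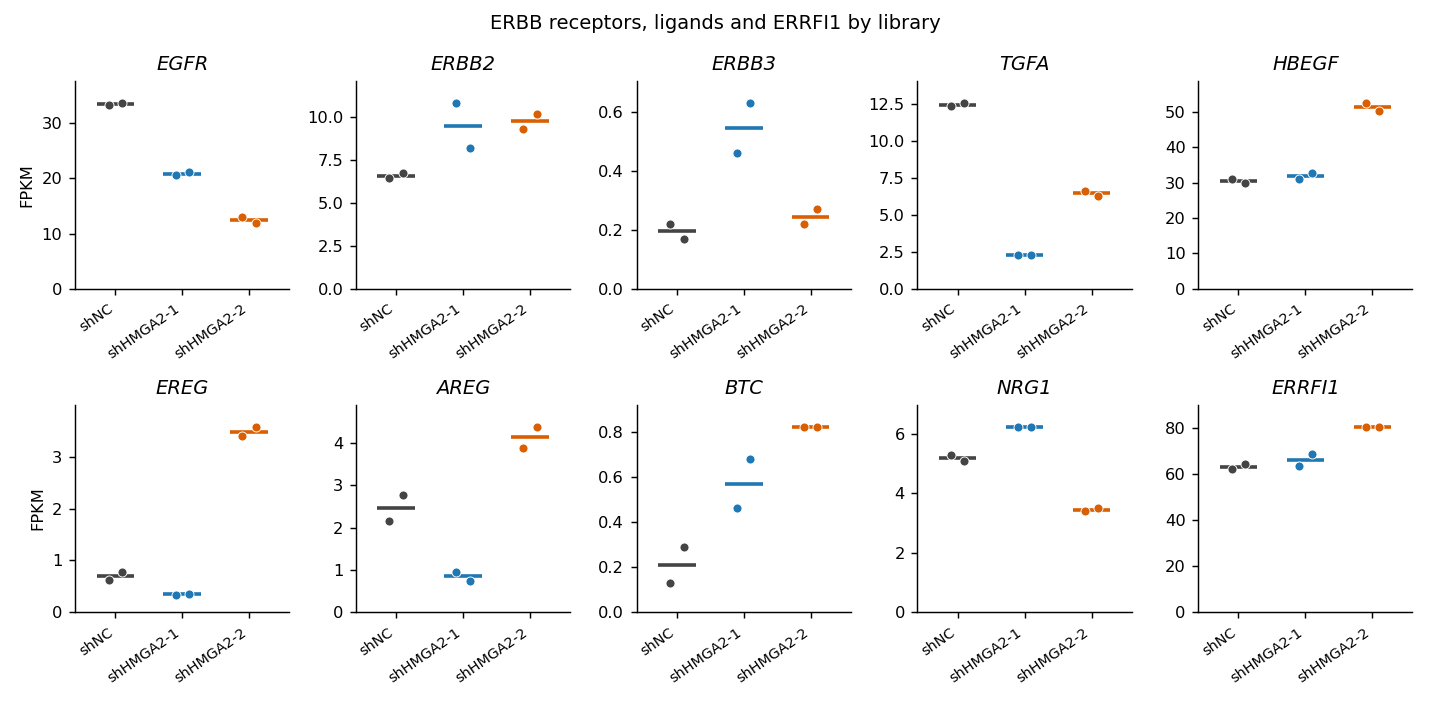
FPKM of each gene (vertical axis, from 0, own scale per panel) in the 6 libraries, grouped by line; points are libraries and bars are means of 2 libraries. EGFR fell from shNC through shHMGA2-1 to shHMGA2-2, TGFA was lowest in shHMGA2-1, and EREG was lowest in shHMGA2-1 and highest in shHMGA2-2.

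EGFR, the receptor of most EGF family ligands, had 9019 and 9103 counts per shNC library, 5646 and 5765 per shHMGA2-1 library and 3429 and 3145 per shHMGA2-2 library. The 3 lines did not overlap, and shHMGA2-2 was lowest. In FPKM the means were 33.5 ± 0.212 (SD, n = 2), 20.9 ± 0.346 and 12.5 ± 0.834. EGFR mRNA was 1.68-fold lower in shHMGA2-1 (log2 fold change −0.75, SE 0.065, edgeR adjusted p = 2.063e-09) and 2.91-fold lower in shHMGA2-2 (−1.54, SE 0.0666, adjusted p = 8.125e-16). It was also 1.74-fold lower in shHMGA2-2 than in shHMGA2-1 (adjusted p = 3.41e-10). The antisense gene EGFR-AS1 overlaps it and had 2 to 10 counts. The 2 genes were counted separately, but the strand setting of the counting is not stated, so that it is not known how reads in the overlap were assigned.

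ERBB2, the partner receptor without a ligand of its own, was higher in both knockdown lines. Its counts were 1126 and 1174 per shNC library, 1909 and 1443 per shHMGA2-1 library and 1576 and 1741 per shHMGA2-2 library. Every knockdown library lay above both controls, and the shHMGA2-1 libraries lay on either side of the shHMGA2-2 ones. The difference from shNC was 1.38-fold in shHMGA2-1 (log2 fold change 0.46, SE 0.095, edgeR adjusted p = 0.0004787) and 1.36-fold in shHMGA2-2 (0.45, SE 0.0951, adjusted p = 0.0002819). In shHMGA2-1 it was 0.27 without replicate 1 of that line and 0.64 without its replicate 2. Between the knockdown lines it was −0.02 on the log2 scale (95% interval −0.21 to 0.18, adjusted p = 0.9047). This last value rested on single libraries, since it was 0.18 (adjusted p = 0.04348) without shHMGA2-1 replicate 1 and −0.19 (adjusted p = 0.03016) without shHMGA2-1 replicate 2, with adjusted p up to 0.9584 over all alternatives. With limma on log2 FPKM plus a pseudocount of 1 or 0.1, ERBB2 passed in neither line (adjusted p 0.1478 and 0.1382 in shHMGA2-1, 0.06355 and 0.0603 in shHMGA2-2). The overlapping genes MIEN1 and PGAP3 had 460 to 529 and 49 to 114 counts.

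ERBB3, the neuregulin receptor, was rare in every library. It had 44 and 34 counts per shNC library, 92 and 127 per shHMGA2-1 library and 43 and 52 per shHMGA2-2 library. Both shHMGA2-1 libraries lay above the other 4, and the counts of shHMGA2-2 overlapped those of shNC. ERBB3 was 2.66-fold higher in shHMGA2-1 (log2 fold change 1.41, SE 0.245, edgeR adjusted p = 7.362e-05). In shHMGA2-2 the value was 0.20 (SE 0.276, adjusted p = 0.5505, 95% interval −0.37 to 0.77). The direct difference of shHMGA2-2 from shHMGA2-1 was −1.21 (SE 0.237, adjusted p = 0.000151). With limma the adjusted p was 0.08009 and 0.09717 for shHMGA2-1 against shNC and 0.07297 and 0.1075 between the knockdown lines. Its FPKM was 0.195 ± 0.0354 in shNC, 0.545 ± 0.12 in shHMGA2-1 and 0.245 ± 0.0354 in shHMGA2-2 (SD, n = 2).

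The ratio of EGFR to ERBB2 in FPKM was 5.10 ± 0.116 (SD, n = 2) in shNC, 2.25 ± 0.476 in shHMGA2-1 and 1.29 ± 0.169 in shHMGA2-2. With exon lengths of 15941 bases for EGFR and 10321 for ERBB2, it stayed above 1 in all 6 libraries. Its values did not overlap between lines.

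TGFA, an EGFR ligand, had 1035 and 1050 counts per shNC library, 193 and 193 per shHMGA2-1 library and 536 and 515 per shHMGA2-2 library. The lines did not overlap and shHMGA2-1 was lowest, a different order from that of EGFR. Mean FPKM was 12.5 ± 0.127 (SD, n = 2), 2.29 in both shHMGA2-1 libraries, and 6.47 ± 0.219. TGFA was 5.70-fold lower in shHMGA2-1 (log2 fold change −2.51, SE 0.105, edgeR adjusted p = 4.535e-15) and 2.10-fold lower in shHMGA2-2 (−1.07, SE 0.0935, adjusted p = 5.72e-10). It was 2.72-fold higher in shHMGA2-2 than in shHMGA2-1 (1.44, SE 0.11, adjusted p = 6.794e-11).

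HBEGF, the heparin-binding ligand of EGFR and ERBB4, had the highest FPKM of the 6 ligands in every line, although NRG1, whose exons are longer, had more counts in shNC and shHMGA2-1. Its counts were 1572 and 1523 per shNC library, 1588 and 1675 per shHMGA2-1 library and 2585 and 2502 per shHMGA2-2 library. Only the shHMGA2-2 libraries stood apart from the other 4. HBEGF was 1.56-fold higher in shHMGA2-2 than in shNC (log2 fold change 0.64, SE 0.0743, edgeR adjusted p = 7.84e-08) and 1.56-fold higher than in shHMGA2-1 (adjusted p = 1.075e-07). Between shHMGA2-1 and shNC the log2 difference had a 95% interval of −0.16 to 0.15 (adjusted p = 0.9954).

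EREG, which encodes epiregulin, a ligand of EGFR and ERBB4, moved in opposite directions. It had 61 and 75 counts per shNC library, 33 and 34 per shHMGA2-1 library and 319 and 338 per shHMGA2-2 library. The lines did not overlap. EREG was 2.14-fold lower in shHMGA2-1 (log2 fold change −1.10, SE 0.228, edgeR adjusted p = 0.000536) and 4.56-fold higher in shHMGA2-2 (2.19, SE 0.164, adjusted p = 3.199e-11). Between the knockdown lines the difference was 9.76-fold (3.29, SE 0.185, adjusted p = 2.22e-13). With limma and a pseudocount of 1 the shHMGA2-1 difference did not pass (adjusted p = 0.1189, range over all alternatives 8.361e-05 to 0.1189).

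AREG, which encodes the EGFR ligand amphiregulin, followed the same order of lines. Its counts were 60 and 77 per shNC library, 27 and 21 per shHMGA2-1 library and 105 and 119 per shHMGA2-2 library, without overlap. AREG was 3.00-fold lower in shHMGA2-1 (log2 fold change −1.59, SE 0.269, edgeR adjusted p = 5.479e-05) and 4.64-fold higher in shHMGA2-2 than in shHMGA2-1 (2.21, SE 0.252, adjusted p = 7.988e-08). Its rise of 1.54-fold in shHMGA2-2 against shNC (0.63, SE 0.212, adjusted p = 0.01372) did not pass without shNC replicate 1 (0.45, adjusted p = 0.157), without shHMGA2-2 replicate 2 (0.55, adjusted p = 0.103), with DESeq2 (adjusted p = 0.1724) or with limma and a pseudocount of 0.1 (adjusted p = 0.0523). Over all alternatives the adjusted p was 0.004353 to 0.1724.

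BTC, which encodes betacellulin, was rare in every library. It had 6 and 13 counts per shNC library, 21 and 31 per shHMGA2-1 library and 36 and 36 per shHMGA2-2 library. All 4 knockdown libraries lay above both controls. BTC was 3.55-fold higher in shHMGA2-2 (log2 fold change 1.83, SE 0.436, edgeR adjusted p = 0.0009023) and 2.57-fold higher in shHMGA2-1 (1.36, SE 0.457, adjusted p = 0.02346). Without shNC replicate 2, which had the more BTC counts of the controls, the log2 fold change was 2.48 in shHMGA2-2 and 2.02 in shHMGA2-1. The shHMGA2-1 call was lost without shNC replicate 1 (0.91, adjusted p = 0.228), without shHMGA2-1 replicate 2 (1.04, adjusted p = 0.1601), with DESeq2 (adjusted p = 0.1389) and with limma (adjusted p 0.1704 and 0.1625), and ranged from 0.01264 to 0.228 over all alternatives. The difference between the knockdown lines was 0.46 (SE 0.368, adjusted p = 0.3103).

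NRG1, which encodes the ERBB3 and ERBB4 ligand neuregulin 1, had 1920 and 1849 counts per shNC library, 2283 and 2278 per shHMGA2-1 library and 1197 and 1240 per shHMGA2-2 library. The lines did not overlap, with shHMGA2-1 highest and shHMGA2-2 lowest. NRG1 was 1.64-fold lower in shHMGA2-2 than in shNC (log2 fold change −0.71, SE 0.0739, edgeR adjusted p = 1.2e-08) and 1.87-fold lower than in shHMGA2-1 (−0.91, SE 0.0735, adjusted p = 2.267e-10). Its 1.15-fold rise in shHMGA2-1 (0.20, SE 0.0717, adjusted p = 0.03684) did not pass without any 1 of shNC replicate 1, shNC replicate 2, shHMGA2-2 replicate 1 and shHMGA2-2 replicate 2 (adjusted p 0.1525, 0.2787, 0.06175 and 0.06853). It also did not pass with DESeq2 (adjusted p = 0.1081), RLE factors (0.05866), no filter (0.1209) or limma (0.06035 and 0.05475), so that with the block on replicate number the call was lost in 10 of 14 alternatives, and over all alternatives the adjusted p ranged from 0.005717 to 0.2787.

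ERRFI1, the inhibitor, had the highest FPKM of the 10 genes in every line. Its counts were 4409 and 4562 per shNC library, 4568 and 4919 per shHMGA2-1 library and 5543 and 5575 per shHMGA2-2 library. The shHMGA2-2 libraries lay above the other 4. ERRFI1 was 1.17-fold higher in shHMGA2-2 than in shNC (log2 fold change 0.23, SE 0.065, edgeR adjusted p = 0.003968) and 1.17-fold higher than in shHMGA2-1 (adjusted p = 0.005272). The first call was lost without shNC replicate 1 (adjusted p = 0.0975, range 5.397e-05 to 0.0975) and the second without shHMGA2-2 replicate 1 (adjusted p = 0.06147, range 9.396e-05 to 0.06147). In shHMGA2-1 the log2 difference from shNC had a 95% interval of −0.13 to 0.14 (adjusted p = 0.9865).

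**Figure D2:**
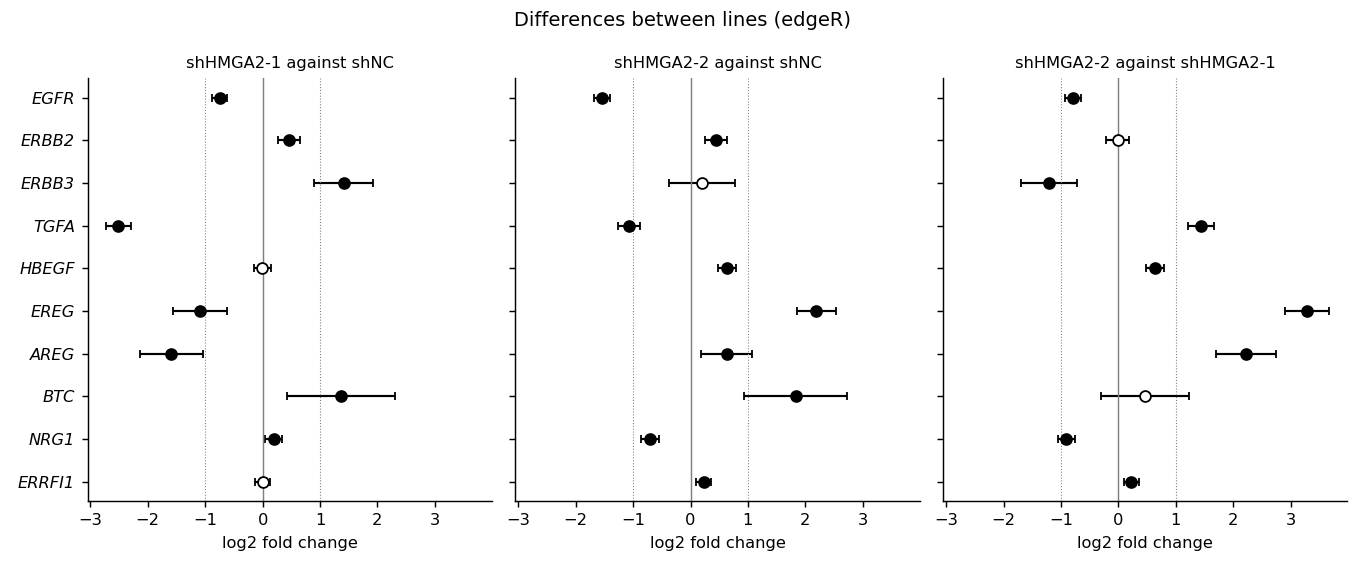
Log2 fold change of each gene (horizontal axis) in the 3 comparisons between lines from edgeR; bars are 95% intervals, filled points have an adjusted p under 0.05 and dotted lines mark 2-fold. TGFA lies at −2.51 and −1.07 in the knockdown comparisons, and EREG at −1.10 and 2.19.

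In the direct comparison of shHMGA2-2 with shHMGA2-1, 8 of the 10 genes were called, 3 lower (EGFR, ERBB3 and NRG1) and 5 higher (TGFA, HBEGF, EREG, AREG and ERRFI1). Of all tested genes 50.2% were called, 25.7% lower and 24.5% higher. At least 2-fold differences were found for 4 of the 10 genes (ERBB3, TGFA, EREG and AREG), against 15.1% of all tested genes.

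With the 4 knockdown libraries taken as 1 group against shNC, none of the 10 genes was called by edgeR, where 5.26% of all tested genes were. The difference between the knockdown lines counts as error in this comparison. Unadjusted p was under 0.05 for 4 genes, namely EGFR (adjusted p = 0.07403), ERBB2 (0.09263), BTC (0.09424) and TGFA (0.1019). DESeq2 called 3, namely EGFR (adjusted p = 0.00283), TGFA (0.005008) and ERBB2 (0.04958), and limma called 0 with either pseudocount, with 4 at an unadjusted p under 0.05. The pooled EGFR difference was −1.09 on the log2 scale and was negative in 4 of 4 knockdown libraries.

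On the FPKM scale, which divides counts by the summed exon length, the 6 ligands added up to 51.5 ± 0.0566 (SD, n = 2) in shNC, 42.1 ± 1.27 in shHMGA2-1 and 69.8 ± 1.15 in shHMGA2-2, and these sums did not overlap between lines. HBEGF made up 59.2% ± 1.27 of the sum in shNC, 75.6% ± 0.688 in shHMGA2-1 and 73.7% ± 0.887 in shHMGA2-2. TGFA made up 24.2% ± 0.274, 5.44% ± 0.165 and 9.26% ± 0.162. NRG1 took 10.1% ± 0.263 in shNC, 14.8% ± 0.43 in shHMGA2-1 and 4.94% ± 0.172 in shHMGA2-2. EREG, AREG and BTC together stayed the minor fraction, with AREG at 4.76%, 2.04% and 5.91% and EREG at 1.36%, 0.820% and 4.99%. The exon length is that of the whole gene, 21398 bases for NRG1 and 2990 for HBEGF, and shares between genes depend on it. Which isoforms the cells make was not tested. These shares are of mRNA and do not weigh how much ligand is shed.

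**Figure D3:**
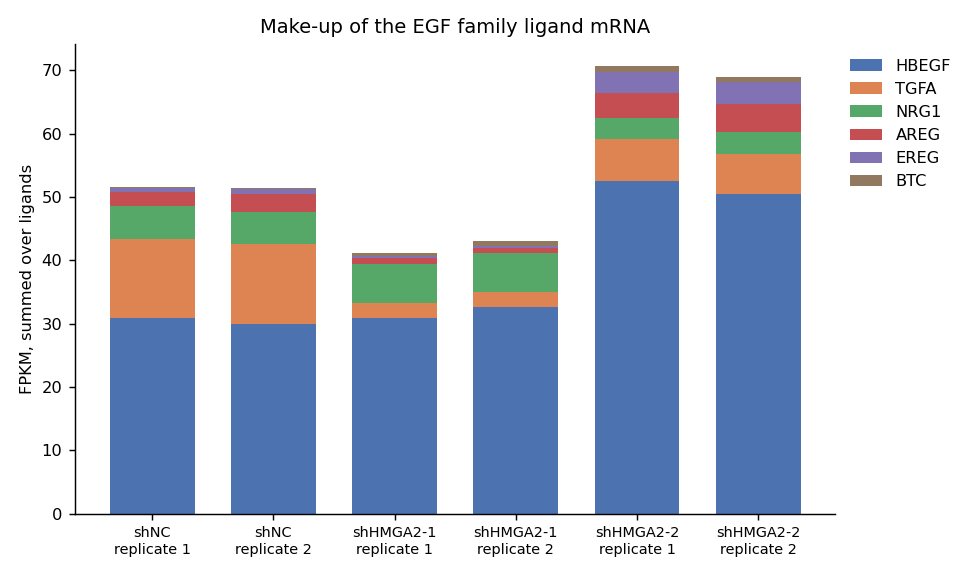
FPKM of the 6 ligands (vertical axis) stacked for each library (horizontal axis, 2 libraries per line). The sums are near 51.5 in shNC, 42.1 in shHMGA2-1 and 69.8 in shHMGA2-2, and the HBEGF layer is the widest in all 6 libraries.

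Ordered by mean FPKM, shNC ran from ERRFI1 (63.2) through EGFR (33.5), HBEGF (30.5), TGFA (12.5), ERBB2 (6.57), NRG1 (5.19), AREG (2.46) and EREG (0.70) to BTC (0.21) and ERBB3 (0.195), and of these neighbours BTC and ERBB3 overlapped between libraries. In shHMGA2-1 the order was ERRFI1 (66.2), HBEGF (31.8), EGFR (20.9), ERBB2 (9.47), NRG1 (6.22), TGFA (2.29), AREG (0.855), BTC (0.57), ERBB3 (0.545) and EREG (0.345), where BTC and ERBB3 overlapped again. In shHMGA2-2 it was ERRFI1 (80.5), HBEGF (51.5), EGFR (12.5), ERBB2 (9.73), TGFA (6.47), AREG (4.13), EREG (3.48), NRG1 (3.45), BTC (0.82) and ERBB3 (0.245), where EREG and NRG1 overlapped. On this scale EGFR thus stood above HBEGF in shNC and below it in both knockdown lines. The order between genes depends on the exon length used, which was 15941 bases for EGFR and 2990 for HBEGF.

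Of the other 6 family genes, 2 were tested, EGF and NRG2. ERBB4, the remaining receptor, had 0 or 1 count in each library, NRG3 had 0 in all 6, which allows up to 0.175 to 0.182 CPM (depth-scaled counts, from a limit of 3 counts, counting error only), and EPGN (0 to 4 counts) and NRG4 (2 to 7 counts) did not reach the filter. EGF had 40 and 43 counts per shNC library, 94 and 61 per shHMGA2-1 library and 37 and 36 per shHMGA2-2 library. EGF was higher in shHMGA2-1 than in shNC (log2 fold change 0.82, SE 0.26, edgeR adjusted p = 0.01695), and its value in shHMGA2-2 was −0.26 (adjusted p = 0.4533). NRG2, another neuregulin, had 0 and 1 counts per shNC library, 11 and 10 per shHMGA2-1 library and 34 and 12 per shHMGA2-2 library. Its ratio to shNC was 20.8 (95% exact counting interval 3.34 to 860.0) in shHMGA2-1 and 47.3 (8.07 to 1907) in shHMGA2-2, with edgeR adjusted p of 0.005985 and 5.271e-05.

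Of 8 tested genes that release ligands or restrain their release, 1 was lower and 3 higher in shHMGA2-1, 1 lower and 5 higher in shHMGA2-2, and 2 lower and 5 higher in the direct comparison, with medians of 0.11, 0.61 and 0.66 on the log2 scale beside 0.01, 0.03 and 0.00 over all tested genes. Over all tested genes, 17.6% were lower and 15.8% higher in shHMGA2-1, 29.2% and 29.5% in shHMGA2-2, and 25.7% and 24.5% in the direct comparison. RHBDF1, an inactive rhomboid that helps the sheddase ADAM17 mature, had a mean FPKM of 2.13 in shNC, 2.17 in shHMGA2-1 and 5.85 in shHMGA2-2 (log2 fold change in shHMGA2-2 1.33, SE 0.15, edgeR adjusted p = 4.382e-08). RHBDL2, a rhomboid protease, had 0.395, 0.755 and 2.07 FPKM (0.86 in shHMGA2-1, adjusted p = 0.04596, and 2.26 in shHMGA2-2, adjusted p = 2.762e-07). ADAM12, a metalloprotease that can shed HBEGF, was lower in both lines (−1.44, adjusted p = 0.004592, and −4.40, adjusted p = 2.454e-07) with 41 and 44 counts in shNC and 2 and 2 in shHMGA2-2. TIMP3, an inhibitor of ADAM17, was at 0 in each shNC library, with 2 and 0 counts per shHMGA2-1 library and 41 and 58 per shHMGA2-2 library, at least 33.9-fold higher than 3 counts over the shNC group would be (adjusted p = 1.272e-07).

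Of 24 tested adaptors and kinases that relay the signal, 6 were lower and 2 higher in shHMGA2-1, 14 lower and 4 higher in shHMGA2-2, and 11 lower and 3 higher in the direct comparison, with medians of −0.08, −0.27 and −0.15, against all-gene medians of 0.01, 0.03 and 0.00. Of all tested genes, 33.4% were called in shHMGA2-1 (17.6% lower and 15.8% higher) and 58.7% in shHMGA2-2 (29.2% and 29.5%). In the direct comparison 50.2% were called (25.7% and 24.5%). The 8 of 24 in shHMGA2-1 are near that background. PIK3CA, a catalytic subunit of PI3K, had 5.69, 4.03 and 2.43 FPKM in shNC, shHMGA2-1 and shHMGA2-2 (log2 fold change −0.56, edgeR adjusted p = 1.578e-05, and −1.35, adjusted p = 3.583e-12). MAPK3, which encodes ERK1, fell by 0.99 in shHMGA2-2 (adjusted p = 1.686e-08), while its value in shHMGA2-1 was −0.08 (adjusted p = 0.5942). GAB1, a docking adaptor, fell by 0.82 in shHMGA2-2 (adjusted p = 1.005e-05) and had −0.30 in shHMGA2-1 (adjusted p = 0.07733).

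Of 13 tested genes that restrain the receptors, 6 were lower and 0 higher in shHMGA2-1, 4 lower and 3 higher in shHMGA2-2, and 2 lower and 6 higher in the direct comparison, with medians of −0.28, −0.04 and 0.08, against 0.01, 0.03 and 0.00 over all tested genes. The all-gene shares called were 33.4% (17.6% lower and 15.8% higher), 58.7% (29.2% and 29.5%) and 50.2% (25.7% and 24.5%). The 7 of 13 in shHMGA2-2 are near that background. CBL, a ubiquitin ligase that marks EGFR for degradation, was lower in both lines (log2 fold change −0.28, edgeR adjusted p = 0.003294, and −0.60, adjusted p = 7.797e-08), as was SOCS4 (−0.41, adjusted p = 0.0004767, and −0.58, adjusted p = 2.711e-06). CBLB fell by 1.49 in shHMGA2-1 (adjusted p = 2.102e-06) and had −0.38 in shHMGA2-2 (adjusted p = 0.07185). SH3KBP1, an adaptor of CBL in receptor uptake, was lower in shHMGA2-1 (−0.44, adjusted p = 0.0001417) and higher in shHMGA2-2 (0.94, adjusted p = 1.998e-10).

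Genes known to respond to ERK were lower in shHMGA2-2 for 12 of 16 tested and higher for 3, with a median of −0.80, where 29.2% of all tested genes were lower and 29.5% higher and their median was 0.03. In shHMGA2-1, 6 were lower and 2 higher with a median of −0.15, and in the direct comparison 10 were lower and 4 higher with a median of −0.46. Over all tested genes, 33.4% were called in shHMGA2-1 (17.6% lower and 15.8% higher) and 50.2% in the direct comparison (25.7% and 24.5%), with medians of 0.01 and 0.00. DUSP4, an ERK phosphatase, had 36.5, 18.6 and 0.805 FPKM in shNC, shHMGA2-1 and shHMGA2-2 (log2 fold change −1.04, edgeR adjusted p = 8.347e-11, and −5.62, adjusted p = 1.293e-22). DUSP6 fell by 1.60 and DUSP5 by 1.59 in shHMGA2-2 (adjusted p = 5.926e-15 and 1.316e-14), with −0.15 and −0.12 in shHMGA2-1 (adjusted p = 0.1289 and 0.2365). EGR1, an immediate early transcription factor, went the other way, from 5.81 to 31.3 and 58.5 FPKM (2.37, adjusted p = 2.233e-15, and 3.21, adjusted p = 5.634e-19). Of the 121 genes that the deposited table annotates with the KEGG ErbB pathway beside members, 77 were tested, of which 19 were lower and 12 higher in shHMGA2-1, 34 lower and 21 higher in shHMGA2-2, and 32 lower and 17 higher in the direct comparison, beside 33.4%, 58.7% and 50.2% of all tested genes called. In the pooled comparison 1 of the 16 ERK-responsive genes and 2 of the 77 were called, beside 5.26% of all tested genes.

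**Figure D4:**
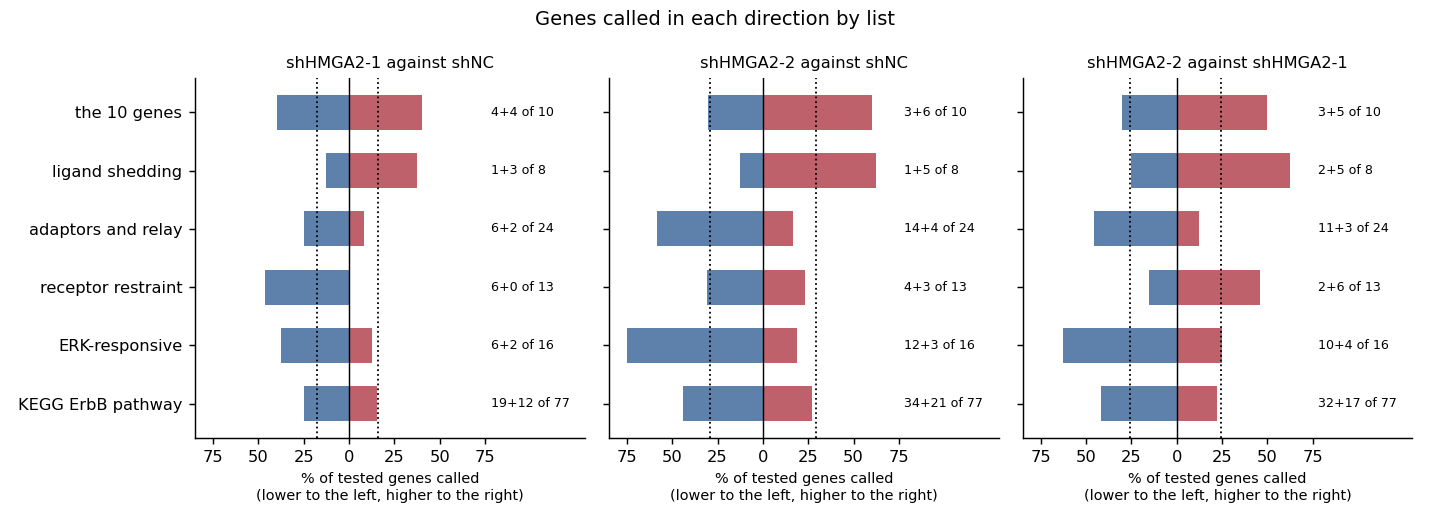
Share of tested genes called by edgeR in each list (horizontal axis, percent, lower to the left in blue and higher to the right in red) for the 3 comparisons between lines, with the counts of lower plus higher of tested genes at the right; dotted lines mark the shares over all tested genes. The ERK-responsive list shows 12 lower and 3 higher genes of 16 in shHMGA2-2.

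Around EREG and AREG, a window of 1000 kb on each side of the EREG start, chosen after the values were seen, held 48 genes, of which 11 were tested. The 8 that were not members included chemokine genes. CXCL8, which encodes interleukin 8, had 17.6 and 17.2 FPKM per shNC library, 3.78 and 5.44 per shHMGA2-1 library and 59.4 and 62.2 per shHMGA2-2 library (log2 fold change −1.98, edgeR adjusted p = 3.432e-12, and 1.68, adjusted p = 2.824e-13). CXCL1 had −0.52 (adjusted p = 0.01003) and 1.99 (adjusted p = 1.196e-12). These 2 genes thus lay below shNC in shHMGA2-1 and above it in shHMGA2-2, the order of EREG and AREG. The chemokine gene CXCL2, nearer to EREG than these 2, was not lower in shHMGA2-1. It had 0.08 there (adjusted p = 0.6825) and 1.14 in shHMGA2-2 (adjusted p = 1.44e-08). CXCL3 was lower in both lines (−1.76, adjusted p = 2.165e-05, and −0.74, adjusted p = 0.01266), PARM1 was higher in both (1.04, adjusted p = 0.005286, and 1.50, adjusted p = 3.384e-05), and MTHFD2L, the tested gene nearest to EREG on the chemokine side, had 0.08 and −0.14 (adjusted p = 0.6161 and 0.2528). Of the 8, 3 were lower and 2 higher in shHMGA2-1, where 33.4% of all tested genes were called (17.6% lower and 15.8% higher). In shHMGA2-2, 2 were lower and 4 higher, where 58.7% of all tested genes were called (29.2% and 29.5%).

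The genes whose centred log2 levels over the 6 libraries were nearest to those of the 3 members with the widest range of line means were sought among 11748 genes. For EREG they were THBS1 (root mean square difference 0.145, Pearson's r 0.995 over 6 libraries, which share their lines and depth) and ZNF418 (0.185). THBS1, which encodes thrombospondin 1, had 19.8 and 19.8 FPKM per shNC library, 9.45 and 8.63 per shHMGA2-1 library and 80.2 and 81.0 per shHMGA2-2 library. For TGFA they were ARHGAP18 (0.0677) and CD22 (0.138). ARHGAP18 had 18.4 and 18.3 FPKM per shNC library, 3.48 and 3.61 per shHMGA2-1 library and 9.75 and 8.51 per shHMGA2-2 library. For AREG they were GPAT3 (0.163), an enzyme of glycerolipid synthesis, and GATA6 (0.19), a transcription factor. GPAT3 had 12.4 and 11.9 FPKM per shNC library, 5.06 and 4.48 per shHMGA2-1 library and 19.8 and 18.7 per shHMGA2-2 library.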

How the data were processed

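RNA was sequenced in 6 libraries of MDA-MB-231, 2 per line. The authors deposited raw counts per gene (whole numbers, not normalized) and FPKM values, which divide counts by exonic size and library total. Recomputing FPKM from the counts matched 100% of the values. The submitters' processing notes name HISAT2 2.2.1, HTSeq 0.6.1 and GRCh38.p13. The strand setting is not given in the sources used here. Unused sample columns numbered 0.

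Groups came from the sample titles. Counts were tested with edgeR 4.0.16 (R 4.3.3), with TMM scaling, filterByExpr, a quasi-likelihood fit over 3 lines and Benjamini-Hochberg adjustment over 16110 genes, and again with the 4 knockdown libraries as 1 group. The script was tested on simulated data. Alternatives were DESeq2 1.42.0, RLE and upper quartile factors, no filter, a mean FPKM of at least 1, a replicate block, limma 3.58.1 on log2(FPKM + 1) and log2(FPKM + 0.1), and leaving out each library in turn. DESeq2 and the fit without a filter started from 31871 genes with a count, and limma from 31806 with a mean FPKM above 0. The filter on mean FPKM left 12036. The study's methods name DESeq2.

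The genes and lists were chosen with earlier results of these data known. Beyond the 10 genes and the other family genes, up to 4 genes per list were named, those with the largest absolute change in either knockdown line among called genes, of which 1 is not reported here. Depth was 16461178 to 17167293 counts. The 95% exact counting intervals of NRG2 and the limit of 3 counts cover counting error only. The SE of an edgeR log2 fold change was computed as its absolute value over the square root of the F statistic. The 95% intervals were built from that SE and the t distribution, and also include the estimated spread between libraries.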

Additional observations from a re-analysis of the deposited data

Results flagged for a closer look

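Levels differed between the lines shHMGA2-1 and shHMGA2-2 for 8 of the 10 genes, by edgeR's direct contrast of the lines at an adjusted p under 0.05, where 50.2% of all tested genes also differed. As log2 differences of shHMGA2-2 from shHMGA2-1, EREG had 3.29, AREG 2.21, TGFA 1.44, HBEGF 0.64 and ERRFI1 0.23, while EGFR had −0.80, NRG1 −0.91 and ERBB3 −1.21. Each line had 2 libraries, too few to say which of them stands apart. The shHMGA2-1 libraries differed most from each other. Chi-square per degree of freedom between the libraries of a line was 6.21 there, 2.03 in shNC and 2.91 in shHMGA2-2. The edgeR fit over the lines shared its estimate of the spread between them.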

How the results depend on the processing

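EGFR, AREG and TGFA in shHMGA2-1 kept their direction and call in all 14 alternatives. So did 6 of the 9 calls in shHMGA2-2, where BTC had 13 alternatives because it fell under the mean FPKM of 1, and 6 of the 8 in the direct comparison. Against the 8 genes called in shHMGA2-1, limma called 3 with a pseudocount of 1 and 4 with 0.1. Of 16110 genes 5388 were called there by edgeR, against 2157 and 2344 of 31806 with limma. DESeq2 was given 31871 genes, so that in these comparisons the gene set changed along with the method. In the pooled comparison DESeq2 called 3 of the 10 genes, against 0, and of all genes 1982, against 848 with edgeR and 266 and 374 with limma. With single libraries left out, the 10 genes gave 6 to 8 calls in shHMGA2-1, 7 to 9 in shHMGA2-2, 7 to 9 in the direct comparison and 0 in the pooled one. Over all genes, the ranges were 3283 to 5795, 7702 to 10140, 6226 to 7970 and 4 to 822. The pooled count was lowest, at 4, with either shNC library left out, where the lone control library was assumed to vary like the others.

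Some values that were near 0 in the edgeR fit of all 6 libraries changed sign under an alternative, and the cause was not tested. HBEGF in shHMGA2-1 had 0.062 with upper quartile factors, 0.007 with a mean FPKM of at least 1, 0.06 and 0.061 with limma, and −0.057 to 0.062 over all alternatives, left-out libraries included (0.017 without shNC replicate 1, 0.052 without shHMGA2-1 replicate 1). ERRFI1 in shHMGA2-1 had −0.016 with DESeq2, −0.011 with RLE factors, −0.016 without a filter, −0.026 without shNC replicate 1, −0.068 without shHMGA2-1 replicate 2 and −0.001 when replicate 2 of shHMGA2-2 was left out, with a highest value of 0.07. ERBB2 in the direct comparison had 0.034 with upper quartile factors, 0.009 with a mean FPKM of at least 1, 0.045 and 0.051 with limma, 0.033 when replicate 1 of shHMGA2-2 was left out and 0.183 without shHMGA2-1 replicate 1, with a lowest value of −0.189 without the other library of that line. AREG in the pooled comparison had 0.013 with upper quartile factors, 0.1 without shNC replicate 2, 0.174 without shHMGA2-1 replicate 1, 0.205 when replicate 2 of that line was left out, and −0.497 when replicate 2 of shHMGA2-2 was.

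Libraries with the same replicate number did not deviate together (correlations of replicate differences −0.0218, 0.00213 and −0.1 between lines), so that the numbers were not taken as pairs. A replicate block moved the pooled count of genes called from 848 to 152, and under it NRG1 in shHMGA2-1 had an adjusted p of 0.08261. Depth limits BTC, ERBB3, EREG and AREG most, which had 6 to 338 counts per library.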
